A study of Homo sapiens with 34 samples.

Results

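The nuclear genes of oxidative phosphorylation were followed in U2OS cells, a human osteosarcoma line, over a time course with and without inhibition of the pentose phosphate pathway (PPP). Members were the loci whose gene name begins with NDUF, UQCR, ATP5, or COX followed by a digit from 4 to 8, without pseudogenes, and with a mean FPKM (fragments per kilobase of transcript, scaled to the mapped fragments of the library) of at least 1 over the 24 libraries. Of the 28690 loci in the tables, 112 matched the names and 85 passed the minimum. They make up 71 structural subunits (37 of complex I, 8 of complex III, 11 of complex IV, and 15 of complex V) and 14 other members, which are 7 complex I assembly factors, the supercomplex factor COX7A2L, ATP5S, ATP5SL, the copies UQCRHL and ATP5L2, and the antisense RNAs NDUFV2-AS1 and NDUFA6-AS1. Of the rows that fell short, 18 were copies on alternate contigs listed at 0 and 9 were other loci. Just inside the minimum stood UQCRHL at 1.24 and NDUFA6-AS1 at 1.27, and just outside stood NDUFB2-AS1 at 0.923 and COX6B2 at 0.809.

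In oxidative phosphorylation, complex I (NADH dehydrogenase) and complex III (the cytochrome bc1 complex) pass electrons on to cytochrome c, complex IV (cytochrome c oxidase) hands them to oxygen, and complex V (ATP synthase) uses the proton gradient that results. Most subunits are encoded in the nucleus and imported, and a small set is encoded in mitochondrial DNA, so the complexes are built from the products of both genomes. Many of the nuclear genes are known targets of NRF1, ETS factors such as GABP, and YY1.

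All cells were U2OS cells that stably carry a luciferase reporter under the *Bmal1* promoter. Those of the RNA-seq time course were synchronized with dexamethasone. All cells were kept in 5 mM 6-aminonicotinamide (6AN), which inhibits the NADPH-producing enzymes of the PPP, or in the DMSO vehicle as control. RNA-seq libraries were labelled every 4 hr from 0 to 44 hr, with 1 library per time point and condition, 12 in control and 12 in 6AN, and 10 ChIP-seq libraries were made from cells at 24 hr, with 1 library per condition for BMAL1, CLOCK, H3K4me3, H3K9ac, and input. Hours are those of the labels, which do not give the time between the dexamethasone shock and the library labelled 0 hr. The authors normalized the control and 6AN tables separately, so tests were run only over the time points within a table, and differences between the tables are given as values without a test.

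Read totals were not in the tables. Relative depth, estimated from the steps between low FPKM values with the median library of each table set to 1, ranged from 0.582 (4 hr) to 1.31 (32 hr) in control and from 0.695 (20 hr) to 1.55 (32 hr) in 6AN. Of 10 osteoblast lineage markers, 7 had a mean FPKM of at least 1, with SPARC at 323 in control and 129 in 6AN, while COL1A2 and SP7 were near 0. COL1A1 had means of 128 and 33.9 FPKM, and SPARC, COL1A1, and ALPL were below control at all 12 time points, SPP1 (2.07 and 4.00 FPKM) was above at all 12, and RUNX2 and BGLAP were below at 8 of 12 each. The summed level of the list was 435 to 587 FPKM in control and 146 to 317 in 6AN. Of 12 markers of other cell types, KRT8 and CD68 had a mean FPKM of at least 1, KRT8 with 102 in control and 51.4 in 6AN (below at all 12 time points) and CD68 with 3.51 and 6.21 (above at all 12). The sum of that list was 86.2 to 141 FPKM in control and 55.3 to 70.1 in 6AN, with CD3E listed at 0 in every control library. Both sums moved with the treatment, and their part in the results was not tested. In bulk samples, fewer cells of a type and less RNA per cell cannot be told apart.

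Promoter sequences from RefSeq (GRCh38.p14) were matched to 70 of the 85 members. In the 250 bases before the start site, CACGTG (the E-box, the letters that BMAL1 and CLOCK bind, which read the same on both strands) was present in 8 of 70 member promoters (11.4%) and in 11.2% of all 10464 promoters of loci with a mean FPKM of at least 1. A BMAL1 or CLOCK peak lay within 1000 bp of the start site at 6 of these 8 members, against 38.0% of all promoters with the letters. The stretches around the E-box of these 6 are shown because they join the letters of the clock factors to a measured peak, with CACGTG in capitals, 5′ to 3′ along the gene.
NDUFV2-AS1, chr18:9136721-9136782, minus strand: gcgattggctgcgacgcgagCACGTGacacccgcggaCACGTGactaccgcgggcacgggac
UQCR11, chr19:1605624-1605669, minus strand: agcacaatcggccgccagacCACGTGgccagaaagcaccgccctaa
NDUFS7, chr19:1383700-1383745, plus strand: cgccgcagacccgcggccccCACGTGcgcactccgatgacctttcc
NDUFA7, chr19:8321470-8321515, minus strand: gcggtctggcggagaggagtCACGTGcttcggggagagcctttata
NDUFAF5, chr20:13784882-13784927, plus strand: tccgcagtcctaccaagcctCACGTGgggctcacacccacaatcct
ATP5I, chr4:674413-674458, minus strand: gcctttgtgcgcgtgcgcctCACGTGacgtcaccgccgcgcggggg
The E-box lay inside the peak at NDUFV2-AS1, NDUFA7, NDUFAF5, and ATP5I, and outside it at NDUFS7 and UQCR11, where it began 187 bases before the start site. At UQCR11 the called peak ended at position 1605642 and the E-box spanned 1605644 to 1605649, so it lay close to the edge. At NDUFS7 the E-box spanned 1383720 to 1383725 and the peak began at 1383766. ATP5F1 and NDUFA11 held the letters with no peak within 1000 bp.

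The letters of the respiratory chain factors were searched on both strands of the same windows. The NRF1 motif was found in 2 of 70 member promoters (2.86%, against 2.38% of all promoters), CCGGAAG, bound by ETS factors, in 16 (22.9% against 19.1%), and AAGATGGC, bound by YY1, in 2 (2.86% against 2.45%). These shares were near those of all promoters. The NRF1 matches, and ETS matches that occur as a pair in the promoter of a subunit, are shown in capitals as examples of each motif.
ATP5C1, chr10:7788135-7788176, plus strand: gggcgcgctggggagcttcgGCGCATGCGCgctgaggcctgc
NDUFB4, chr3:120596157-120596206, plus strand: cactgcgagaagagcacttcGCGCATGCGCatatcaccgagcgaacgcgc
NDUFS3, chr11:47578957-47579012, plus strand: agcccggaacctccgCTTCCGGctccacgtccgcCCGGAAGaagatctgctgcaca
UQCR11, chr19:1605538-1605594, minus strand: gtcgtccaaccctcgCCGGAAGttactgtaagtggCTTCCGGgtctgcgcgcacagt
The capitals of the first 2 are the NRF1 motif, which reads the same on both strands, and CTTCCGG is CCGGAAG read on the other strand. Among the subunits with a matched promoter, the 15 with the ETS letters had a median difference between 6AN and control of -0.33 and the 45 without them one of -0.29, on the log2(FPKM + 1) scale used below.

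The subunits were abundant and their levels spanned a wide range in control. The median subunit had a mean level of 102 FPKM, against 11.3 FPKM for the median of all 13979 loci with a mean of at least 1. FPKM is a level per transcript length, so genes are set beside each other on it here. How well that scaling holds for short transcripts was not tested. By complex, the median of the subunits' mean levels was 296 FPKM for complex IV, 188 for complex V, 88.4 for complex I, and 80.7 for complex III.

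Within each complex the mean levels of the highest and lowest subunits differed by 13.0-fold in complex III, 13.2-fold in complex IV, 13.7-fold in complex V, and 51.0-fold in complex I. COX7C, a small complex IV subunit, was the highest of all members, with a lowest, median, and highest level of 972, 1152, and 1330 FPKM in control and 992, 1243, and 1348 in 6AN. The ranges overlapped, and 1 library of 6AN lay above that of control. COX5A, on the matrix side of complex IV, was its lowest subunit in control, with 74.4, 88.1, and 97.0 FPKM in control and 78.4, 92.7, and 105 in 6AN.

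ATP5E, the epsilon subunit of the F1 head, was the highest member of complex V, with 684, 737, and 865 FPKM in control and 488, 648, and 682 in 6AN. All 12 libraries of 6AN were below the lowest control library. Its locus also names PRELID3B, so its value covers more than 1 gene. ATP5G3 was the lowest subunit of complex V and is described with the c ring.

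UQCRH, the hinge protein of complex III, held 309.6, 348, and 407 FPKM in control and 282, 334, and 383 in 6AN, far above UQCRC1, a core protein, and UQCRFS1, the Rieske iron-sulfur protein, which had means of 98.7 and 98.4 FPKM in control. Those 2 means differed by less than the SD of UQCRFS1 over time points, which was 9.60 FPKM (n = 12). UQCRB, a small subunit, was the lowest in control, with a mean of 26.8 ± 1.64 FPKM in control and 28.8 ± 3.63 in 6AN (SD, n = 12), and 4 libraries of 6AN were above the highest control library.

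In complex I, NDUFB9, a subunit of the distal membrane arm, was highest with 323, 395, and 432 FPKM in control and 286, 328, and 347 in 6AN. NDUFA5, a subunit of the Q module near the quinone site, was lowest with 6.22, 7.71, and 8.53 FPKM in control and 4.24, 5.90, and 6.84 in 6AN. The ranges of both overlapped between conditions. The 7 core subunits of complex I, which carry the flavin and iron-sulfur clusters or line the quinone site, had a median of 57.6 FPKM in control, and the 30 supernumerary subunits one of 98.1.

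**Figure D1:**
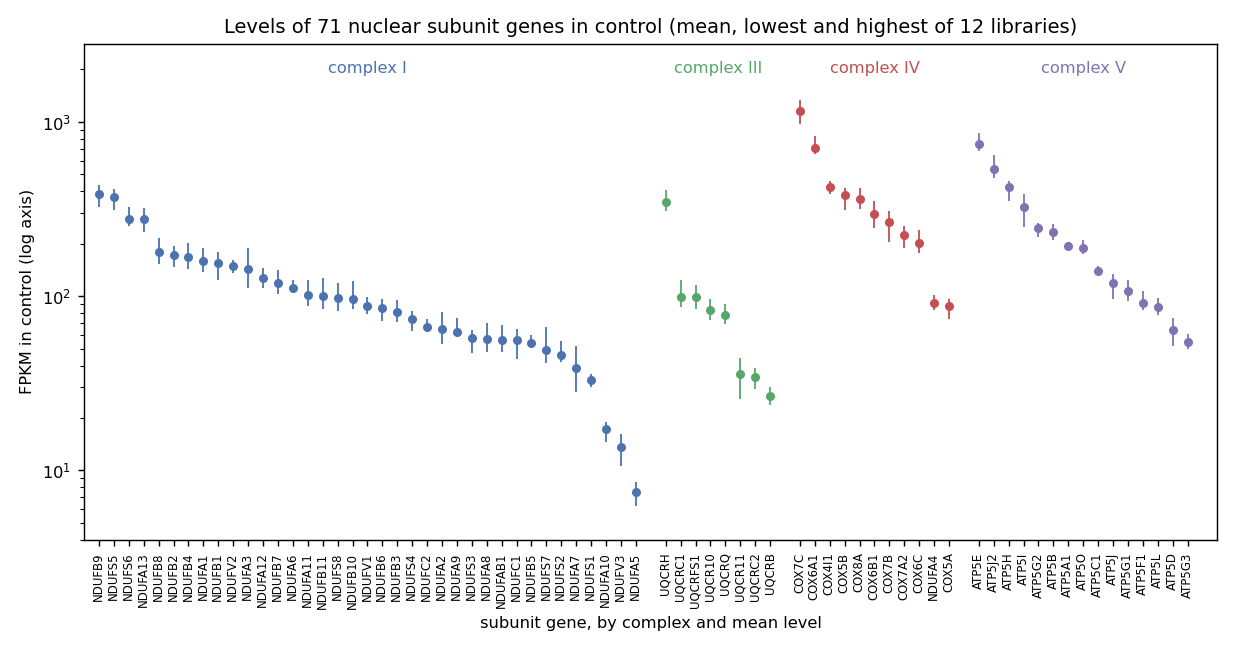
FPKM of the 71 subunit genes in control on a log axis, grouped by complex and ordered by mean level. Points are means and bars run from the lowest to the highest of 12 libraries. Complex I runs from 385 FPKM (NDUFB9) to 7.54 (NDUFA5), and COX7C is the highest at 1159.

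Tissue-restricted and other alternative isoforms were at or near 0 beside high ubiquitous forms. COX4I2 was listed at 0 in all 24 libraries, beside COX4I1 with a median of 425 FPKM in control. COX6A2 (the heart and muscle form), COX7B2, COX8C, and NDUFA4L2 were at 0 in 18, 18, 16, and 13 of the 24 libraries, and their highest single values were 1.81, 1.01, 2.12, and 0.508 FPKM. The partners COX6A1, COX7B, COX8A, and NDUFA4 had control medians of 703, 266, 358, and 89.2 FPKM. COX7A1, the muscle form, and COX6B2, the testis form, reached at most 1.83 and 1.84 FPKM in any library, while COX7A2 and COX6B1 had control medians of 229 and 295. UQCRHL, an intronless copy of UQCRH, reached at most 4.08 FPKM and could share reads with its parent.

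The levels moved little over time. The median coefficient of variation over the 12 time points was 8.42% for the 71 subunits in control and 8.48% in 6AN, and for the 1942 loci with a mean FPKM of at least 50 it was 8.35% and 9.36%. Many of the extremes fell in the same libraries. In control, 37 of 71 subunits were highest in the 12 hr library, as were 25.03% of the loci with a mean FPKM of at least 50, and 24 and 22 subunits were lowest in the 4 and 16 hr libraries, as were 23.7% and 16.2% of those loci. The summed level of the subunits ran from 11498 FPKM at 16 hr to 14334 at 12 hr in control, and from 10026 at 4 hr to 11676 at 12 hr in 6AN. The control library of least relative depth was the one at 4 hr, and the part of depth in these extremes was not tested.

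Subunit transcripts were lower in 6AN in all 4 complexes by their median. Over the 85 members, the median difference between 6AN and control, taken on log2(FPKM + 1) at each labelled hour and averaged over the 12 time points, was -0.24, and over the 71 subunits it was -0.29, against -0.04 for all 13979 loci and -0.11 for the 1942 loci with a mean FPKM of at least 50. The median over the members was below 0 at each time point and ranged from -0.31 (8 hr) to -0.14 (16 hr). On average 66 of the 85 members were below control, where 55.1% of all loci were. At all 12 time points 41 of the 85 members (48.2%) were below control, where 20.4% of all loci were, and 4 (4.71%) were above, where 13.0% of all loci were. The 12 libraries of 6AN lay wholly below the 12 of control for 20 members (23.5%), where they did for 10.3% of all loci.

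The members are more abundant than most loci, so the same counts were taken over loci with a mean FPKM of at least 50, a limit chosen after seeing the data. Of the 63 members above it, 37 (58.7%) were below control at all 12 time points, where 33.0% of such loci were, and 1 was above, where 16.7% were. On average 54 of the 63 were below control, where 62.1% of such loci were. The libraries of 6AN lay wholly below control for 19 of the 63, against 18.7% of such loci, and wholly above for 1, against 8.44%. Without replicate libraries these values have no test, and an effect of the cultures cannot be told apart from one of the treatment.

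As a share of all FPKM in a library, which does not depend on how each library was scaled, the 71 subunits made up 1.22 ± 0.0459% in control (SD, n = 12, lowest 1.16%) and 0.909 ± 0.0321% in 6AN (highest 0.975%), and the ranges did not overlap. The summed FPKM of all loci was 975321 to 1089300 in control and 1080810 to 1281610 in 6AN, with means of 1048450 and 1198060. That of the subunits had means of 12765 and 10878. Because the tables were normalized separately, the lower share in 6AN cannot be divided between the subunit sum and the total. The most abundant single locus had a control mean of 192594 FPKM, and its part in the share was not tested. With each library centred on its median, 36 members were below and 4 above control at all 12 time points, and the median difference was -0.21.

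**Figure D2:**
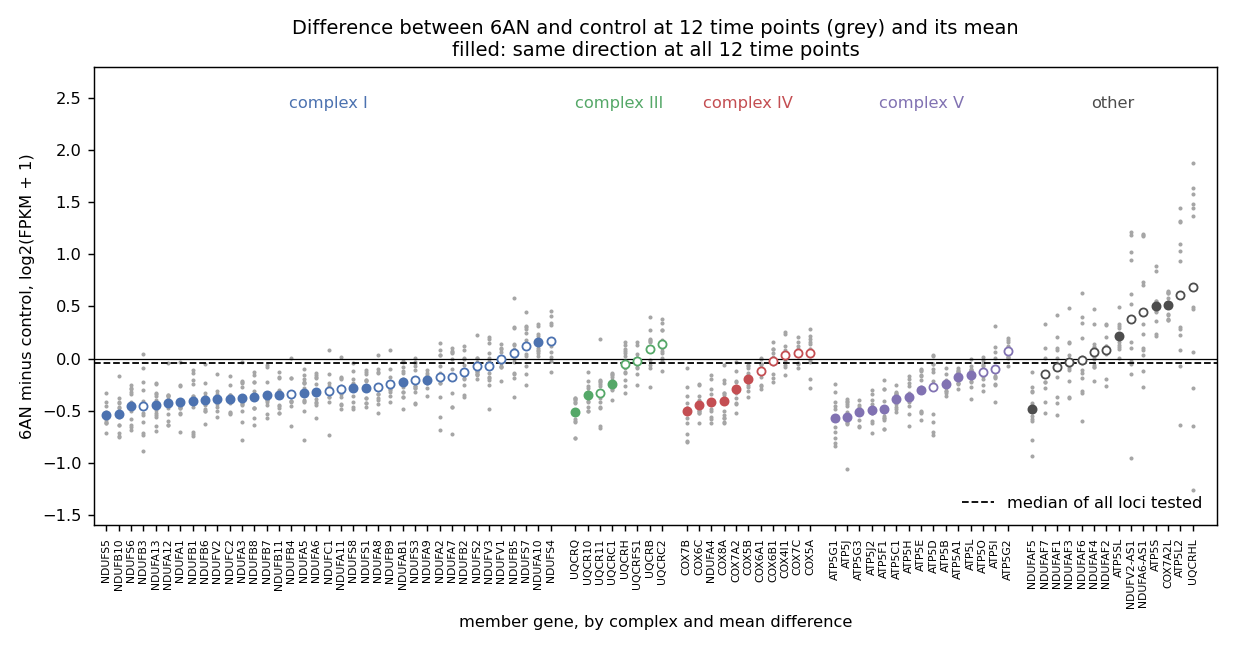
Difference between 6AN and control in log2(FPKM + 1) for the 85 members, by complex, with grey points for the 12 time points and a larger point for their mean, filled where all 12 have the same sign. The dashed line is the median of all loci (-0.04). The 41 filled points below 0 begin at -0.57 (ATP5G1), and 4 filled points lie above 0.

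Complex V held the highest share of subunits below control at every hour. Of its 15 subunits, 11 were below control at all 12 time points and 7 had 6AN wholly below control, with a median difference of -0.30. The F1 head genes ATP5A1 and ATP5B, which form the catalytic ring, differed by -0.17 ± 0.06 and -0.25 ± 0.08 (SD over 12 time points), and ATP5C1, the central stalk, by -0.39 ± 0.08. ATP5J, a coupling factor of the peripheral stalk, had 96.4, 121, and 135 FPKM in control and 59.7, 83.4, and 93.8 in 6AN (lowest, median, and highest). The highest library of 6AN was below the lowest of control, and the difference was -0.56 ± 0.18. ATP5J2 (subunit f, at a locus that also names PTCD1) and ATP5F1 (subunit b) differed by -0.49 ± 0.12 and -0.49 ± 0.15. ATP5O and ATP5I were lower at 11 and 8 of 12 time points.

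The 3 genes of the c ring encode the same mature protein behind different import sequences, and their levels did not move alike. ATP5G1 had 93.9, 103, and 124 FPKM in control and 61.5, 70.1, and 83.4 in 6AN, a difference of -0.57 ± 0.19, which was the largest difference below 0 among the members. ATP5G3 had 50.1, 54.1, and 60.6 FPKM in control and 34.4, 38.0, and 43.9 in 6AN, a difference of -0.51 ± 0.08. For both, the ranges did not overlap. ATP5G2, the most abundant of the 3, had 219.7, 252, and 262 FPKM in control and 228, 260.3, and 299 in 6AN, and was higher in 6AN at 11 of 12 time points (0.07 ± 0.08). Its share of the summed FPKM of the c ring genes was 60.4 ± 1.46% in control (SD, n = 12, highest 62.4%) and 70.2 ± 2.09% in 6AN (lowest 68.1%), so every 6AN library was above every control library. This share and the ratios below were chosen after their values were seen.

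Of the 37 complex I subunits, 33 were lower on average, 20 were below control at all 12 time points, and the median difference was -0.31. By module, the median was -0.38 for the 9 subunits of the proximal membrane arm, -0.35 for the 11 of the distal arm, -0.23 for the 10 of the N module, which binds NADH, and -0.21 for the 6 of the Q module. NDUFS5, a proximal arm subunit, had 311, 374, and 415 FPKM in control and 233, 254, and 269.8 in 6AN, a difference of -0.54 ± 0.10. NDUFB10, of the distal arm, had 84.3, 93.1, and 123 FPKM in control and 53.4, 64.8, and 82.3 in 6AN, a difference of -0.53 ± 0.18. Neither pair of ranges overlapped.

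Complex I also held exceptions. NDUFA10, an accessory subunit of the proximal arm, had 14.6, 17.2, and 18.9 FPKM in control and 16.6, 19.2, and 21.9 in 6AN, and was the 1 subunit above control at all 12 time points (0.16 ± 0.10). The ranges overlapped in part, with 7 of 12 libraries of 6AN above the highest control library. NDUFS4, of the N module, and NDUFS7, a core subunit of the Q module, were higher on average by 0.17 ± 0.18 and 0.12 ± 0.21. Neither was higher at every time point. NDUFB5, of the distal arm, was higher on average by 0.06 ± 0.26 and at 6 of 12 time points. Among the core subunits, NDUFV2 differed by -0.39 ± 0.10 and NDUFV1, its partner at the NADH site, by -0.01 ± 0.10. The ratio of NDUFV1 to NDUFV2 was 0.592 ± 0.0493 in control and 0.777 ± 0.0992 in 6AN (SD, n = 12), with 8 libraries of 6AN above all of control.

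Complexes III and IV were divided. In complex III, UQCRQ, UQCR10, and UQCRC1 were below control at all 12 time points, and the median over 8 subunits was -0.15. UQCRQ, a small quinone-binding subunit, had 69.4, 77.5, and 90.6 FPKM in control and 46.3, 53.7, and 63.0 in 6AN, a difference of -0.52 ± 0.14, with no overlap. UQCRC2 and UQCRB were higher on average by 0.14 ± 0.15 and 0.09 ± 0.18. In complex IV, with a median of -0.19, COX7B (-0.51 ± 0.21), COX6C (-0.44 ± 0.11), NDUFA4 (-0.42 ± 0.15), COX8A (-0.41 ± 0.18), COX7A2 (-0.29 ± 0.14), and COX5B (-0.19 ± 0.10) were below control at all 12 time points. The 5 other subunits (COX7C, COX6A1, COX4I1, COX6B1, and COX5A) differed by -0.12 to 0.06.

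**Figure D3:**
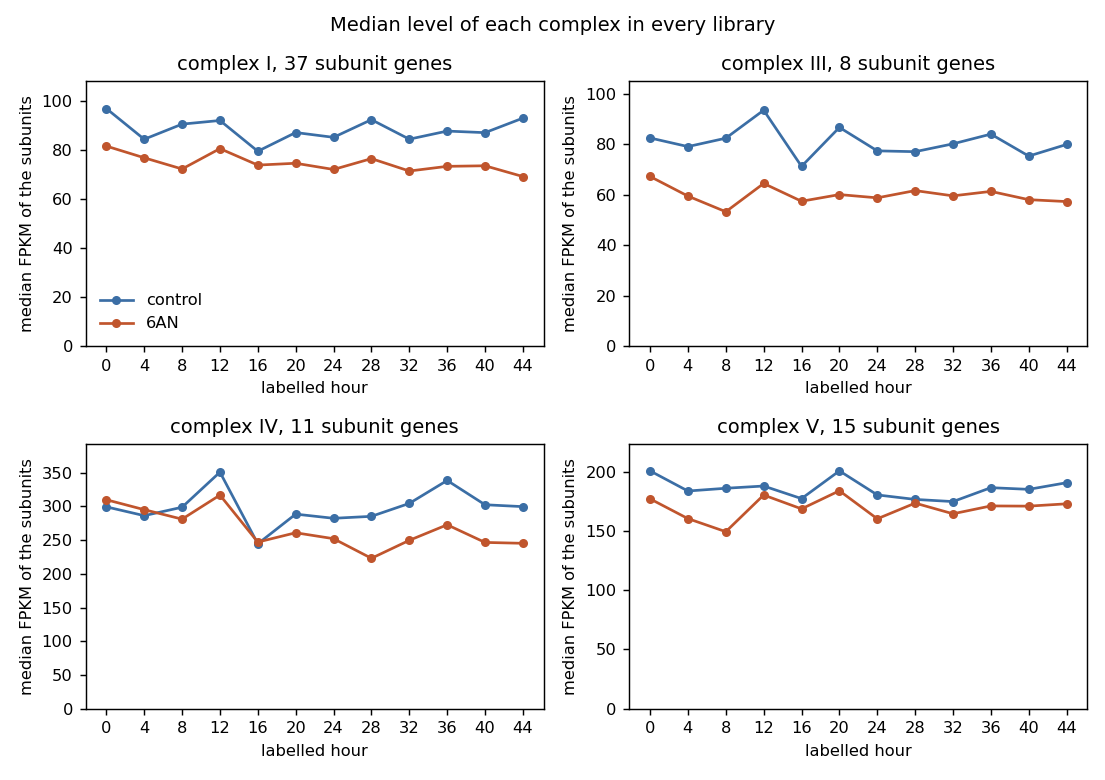
Median FPKM of the subunits of each complex in every library, against the labelled hour, for control and 6AN. Complexes I, III, and V of 6AN lie below control at every hour, while complex IV of 6AN is above control at 0, 4, and 16 hr.

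Of the 4 members above control at all 12 time points, NDUFA10 was a subunit and 3 were not. COX7A2L, a relative of COX7A2 that takes part in joining complexes III and IV into supercomplexes, had 127, 138, and 166 FPKM in control and 172, 205, and 238 in 6AN, a difference of 0.52 ± 0.11. Every 6AN library was above every control library, which was so for 5.89% of all loci. COX7A2 itself had 188, 229, and 254 FPKM in control and 162, 182, and 208 in 6AN, and 7 libraries of 6AN were below the lowest control library. The ratio of COX7A2L to COX7A2 was 0.637 ± 0.0356 in control (SD, n = 12, highest 0.711) and 1.12 ± 0.103 in 6AN (lowest 0.996). The ratios of the conditions did not overlap.

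ATP5S, named as a coupling factor of complex V, had 5.41, 6.71, and 8.23 FPKM in control and 7.68, 9.83, and 14.2 in 6AN, a difference of 0.51 ± 0.20, with 11 of 12 libraries of 6AN above the highest control library. ATP5SL, which despite its name is a complex I assembly factor, had 29.6, 32.7, and 41.6 FPKM in control and 32.8, 37.7, and 48.8 in 6AN, a difference of 0.22 ± 0.13. Among the 7 NDUFAF assembly factors, NDUFAF5, which modifies NDUFS7, was the 1 below control at all 12 time points, with 2.99, 3.65, and 5.07 FPKM in control and 1.17, 2.54, and 3.14 in 6AN (-0.48 ± 0.22), and the other 6 differed by -0.15 to 0.08. For UQCRHL, ATP5L2, and the antisense RNAs, all low, the SD of the difference over time points was 0.53 to 1.03. Strand is not recorded in the tables, so reads of NDUFV2-AS1 and NDUFA6-AS1 cannot be told apart from those of overlapping transcripts.

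**Figure D4:**
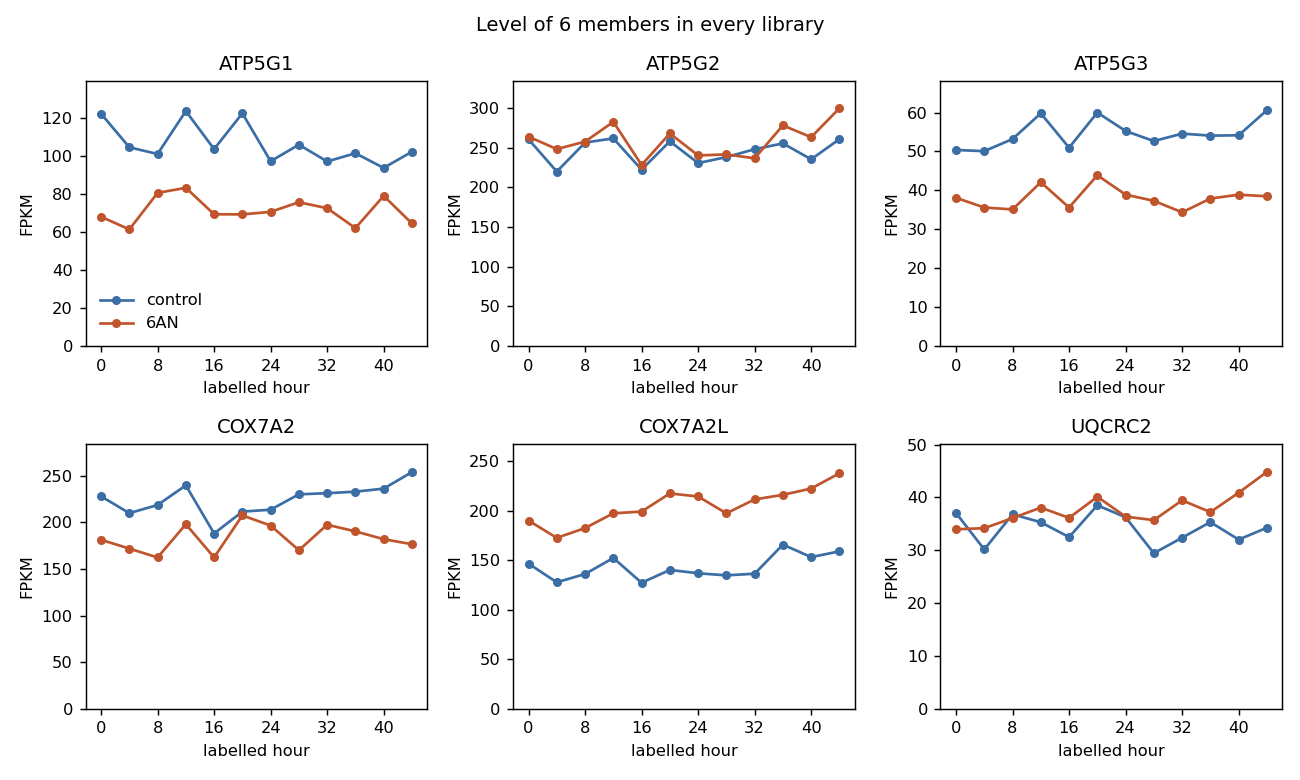
FPKM of ATP5G1, ATP5G2, ATP5G3, COX7A2, COX7A2L, and UQCRC2 against the labelled hour, with 1 point per library for control and 6AN. ATP5G1 and ATP5G3 of 6AN lie wholly below control, COX7A2L lies wholly above it, and UQCRC2 of 6AN is at 44.8 FPKM at 44 hr, where control is at 34.2.

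Linear changes over the time course were tested within each table with limma on log2(FPKM + 1), and a call was made where the Benjamini-Hochberg adjusted p over all 13979 loci did not exceed 0.05. In control, 1 of 85 members fell and 0 rose, where 3.01% of all loci fell, 3.08% rose, and 6.09% did either. At an unadjusted p under 0.05, 5 members rose, where 10.3% of all loci did, and 7 fell by limma, where 10.3% did, and the rank correlation test called 0 after adjustment. The member called was UQCRC1, with a slope per 24 hr on the log2 scale of -0.18 (SE 0.0452, adjusted p = 0.038). In control it had 86.3, 95.4, and 123 FPKM (lowest, median, and highest), with means of 110.2 over the first 3 libraries and 91.7 over the last 3. The call was lost without the 0, 4, 12, 28, 32, 40, or 44 hr library, when the number of members called was 0 or 1.

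In 6AN, 16 of 85 members rose (18.8%, against 12.2% of all loci) and 8 fell (9.41%, against 13.0% of all loci), and 25.2% of all loci did either. Of the 63 members with a mean FPKM of at least 50, 17.5% rose and 12.7% fell, against 21.3% and 14.4% of all such loci. Without the 0 hr library, 14 members were called in all. Those that rose were UQCRH, COX7A2L, UQCRB, COX7C, NDUFS1, NDUFA13, ATP5E, NDUFA5, ATP5H, NDUFB5, ATP5I, NDUFB3, NDUFAF2, UQCRC2, NDUFAF6, and NDUFS4, with slopes from 0.15 to 0.37 per 24 hr. Those that fell were UQCRC1, NDUFS8, NDUFV1, ATP5D, NDUFB2, COX8A, COX6A1, and NDUFB10, with slopes from -0.33 to -0.12. Both directions occurred in each of the 4 complexes.

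Of the rises, UQCRH had the smallest p, with a slope by limma of 0.24 (SE 0.0319, adjusted p = 0.000354) and means of 287 FPKM over the first 3 libraries of 6AN and 378 over the last 3. UQCRB, with UQCRH in complex III, had a slope of 0.25 (SE 0.0507, adjusted p = 0.00454) and went from 24.2 to 31.2 FPKM over the same libraries. COX7A2L had a slope of 0.19 (SE 0.0359, adjusted p = 0.00338) and went from 182 to 225 FPKM, with its first 3 libraries above those of control (137 FPKM). COX7C had a slope of 0.19 (SE 0.0404, adjusted p = 0.00592) and went from 1072 to 1308 FPKM. In complex I, NDUFS1, the largest iron-sulfur subunit, had a slope of 0.15 (SE 0.0327, adjusted p = 0.00597), and NDUFA13, of the proximal arm, one of 0.24 (SE 0.0526, adjusted p = 0.00712). For both, 6AN stayed below control on average over the last 6 time points, by -0.21 and -0.34.

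Among the falls, UQCRC1 had a limma slope of -0.25 (SE 0.0516, adjusted p = 0.005), with means of 94.7 FPKM over the first 3 libraries and 74.2 over the last 3. Its partner core protein UQCRC2 rose, with a slope of 0.15 (SE 0.0392, adjusted p = 0.0197), from 34.7 to 41.0 FPKM, and this call was lost without the 0, 4, or 44 hr library (limma, adjusted p = 0.0608, 0.0511, and 0.0814). The ratio of UQCRC2 to UQCRC1 in 6AN was 0.311 at 0 hr and 0.581 at 44 hr, and in control it was 0.301 and 0.371. Whether the slopes differ between 6AN and control was not tested.

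ATP5D, the delta subunit of the F1 head, had the steepest fall, with a limma slope of -0.33 (SE 0.0733, adjusted p = 0.00751), from 62.3 to 43.6 FPKM, where ATP5E of the same head rose from 505 to 649.6 FPKM with a slope of 0.23 (SE 0.0531, adjusted p = 0.00928). In complex I, NDUFS8, an iron-sulfur core subunit, fell from 91.2 to 72.6 FPKM with a slope of -0.25 (SE 0.0536, adjusted p = 0.00593). NDUFV1 fell from 99.0 to 82.0 FPKM with a slope of -0.18 (SE 0.0399, adjusted p = 0.00689), and NDUFB2, of the distal arm, from 172 to 141 FPKM with one of -0.21 (SE 0.0487, adjusted p = 0.00884). NDUFB10 fell from 73.1 to 62.2 FPKM with a slope of -0.20 (SE 0.0637, adjusted p = 0.0367). In complex IV, COX8A fell from 312 to 255 FPKM with a slope of -0.24 (SE 0.0736, adjusted p = 0.032), and COX6A1 from 672 to 603 FPKM with one of -0.12 (SE 0.0373, adjusted p = 0.0365). The calls of NDUFS4, COX6A1, and NDUFB10 were lost under 11, 8, and 8 other settings, among them leaving out the 0, 12, 32, 40, or 44 hr library. The call of COX8A was lost without the 0, 4, 32, 40, or 44 hr library, at adjusted p by limma of 0.0505 to 0.135. Those of NDUFAF6 (without 0, 8, 36, or 44 hr), NDUFAF2 (0, 4, or 44 hr), NDUFB3 and NDUFB5 (0 or 4 hr), ATP5H (44 hr), and ATP5I (0 hr) were lost as well.

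**Figure D5:**
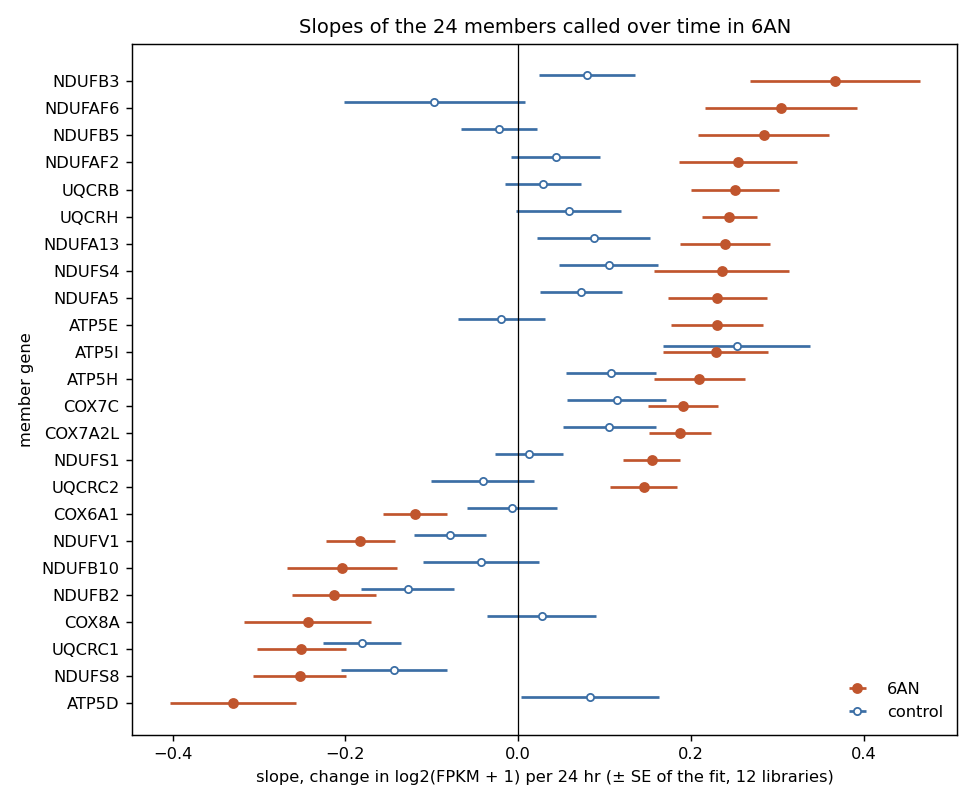
Slopes over the labelled hours of the 24 members called in 6AN, as change in log2(FPKM + 1) per 24 hr, with bars for the SE of the fit over 12 libraries. Filled points are 6AN and open points control, and the 6AN slopes run from -0.33 (ATP5D) to 0.37 (NDUFB3).

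Daily rhythms were tested with a 24 hr cosine and sine beside a linear term, with a call at an unadjusted p of at most 0.01. In control 1 of 85 members was called, where 1.43% of all loci were, and in 6AN 2 were, where 1.95% of all loci were. By limma with Benjamini-Hochberg adjustment, 0 members reached an adjusted p of 0.05 in either condition. At an unadjusted p under 0.05, 3 members were found in control, where 6.72% of all loci were, and 4 in 6AN, where 7.89% were. These shares were near or below the background. NDUFB5, a distal arm subunit of complex I, was the member called in control (limma, p = 0.00135, adjusted p = 0.529), with 50.2, 53.6, and 60.0 FPKM, a fitted amplitude of 0.11 on the log2 scale, and a peak at 13.8 hr. Its limma p in 6AN was 0.938. NDUFA3 and NDUFB10 were called in 6AN (limma, p = 0.00603 and 0.00966, adjusted p = 0.453 and 0.507), with amplitudes of 0.16 and 0.15 and peaks at 13.7 and 15.7 hr. NDUFA3 had 91.5, 111, and 124 FPKM in 6AN. Without the 16 hr library the number called in control was 6, without 20, 24, or 40 hr it was 2, and in 6AN leaving out a single library gave 0 to 3.

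BMAL1 and CLOCK peaks at the members were read from the peak lists of the ChIP-seq libraries at 24 hr. A peak midpoint of BMAL1 or CLOCK in either condition lay within 1000 bp of the start site of 20 of 70 members (28.6%), where 22.2% of all promoters had one. BMAL1 peaks were found at 8 members in control (11.4%, against 10.7% of all promoters) and at 15 in 6AN (21.4%, against 14.8%), and CLOCK peaks at 1 (1.43%, against 1.33%) and 3 (4.29%, against 5.19%). For BMAL1, 5 members had a peak in both conditions, 3 in control only, and 10 in 6AN only, and over all promoters these numbers were 571, 547, and 981. With 1 library per antibody and condition, a peak found in 1 condition only is a call of that library and was not tested.

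The members with a BMAL1 peak in both conditions were UQCR11 and UQCRFS1 of complex III, COX6A1 of complex IV, ATP5I of complex V, and NDUFV2-AS1. The mean peak score over the libraries that called a peak was 14.7 to 20.2 at the first 4 and 81.8 at NDUFV2-AS1. CLOCK alone was called, in 6AN, at NDUFA7, an N module subunit of complex I, and at NDUFAF5, with the E-boxes printed above inside the peak. The start site of NDUFA7 lies 121 bases from that of RPS28, and that of NDUFAF5 109 bases from that of ESF1, on opposite strands, so each peak lies at the start of both genes. In RNA, NDUFA7 had 28.1, 37.8, and 51.6 FPKM in control and 26.5, 36.5, and 40.8 in 6AN, with overlapping ranges.

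NDUFV2-AS1 was the 1 member with peaks of both factors in both conditions, at the site of the pair of E-boxes shown above. In the 1000 bp around the site as listed for control (chromosome 18, positions 9136201 to 9137201), the signal of BMAL1 was 70.4 in control and 91.2 in 6AN, that of CLOCK 93.2 and 216, and that of the input 9.17 and 19.7, in tags that HOMER scaled to a common library total. H3K4me3, a mark of active start sites, had 496 and 446, and H3K9ac, a mark of active chromatin, had 259 and 193. The input was higher in 6AN as well, and its part in the difference was not tested. The start of ANKRD12 lies 843 bases away on the other strand. NDUFV2-AS1 had 1.48, 2.15, and 6.27 FPKM in control and 2.01, 3.31, and 6.16 in 6AN, and the ranges overlapped.

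Other genes of the pathway were read from lists. Of the 4 subunits of complex II, which has no mitochondrially encoded part, 0 were above or below control at all 12 time points, and the median difference was -0.06. By limma in 6AN, SDHC and SDHD rose (slopes 0.16 and 0.16, adjusted p = 0.0361 and 0.0409) and SDHA fell (-0.17, adjusted p = 0.0472). CYCS, which encodes the electron carrier cytochrome c, and CYC1, the cytochrome c1 of complex III, were both below control at all 12 time points, by -0.36 ± 0.15 and -0.24 ± 0.11. Over time in 6AN, by limma, CYCS rose (0.20, adjusted p = 0.00131) and CYC1 fell (-0.15, adjusted p = 0.0379). The 13 mitochondrially encoded subunits were searched by their MT- names, of which 0 were found, so they were not analysed here.

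Of 28 assembly factors of complexes III, IV, and V, 8 were below control at all 12 time points, where 20.4% of all loci were, and 0 above, where 13.0% were, with a median difference of -0.12 against -0.04 for all loci. Of these 8, the largest differences were those of UQCC3 (-0.51), COX20 (-0.46), COA1 (-0.39), and SCO1 (-0.33). In 6AN 6 of the 28 rose and 2 fell over time by limma, where 12.2% and 13.0% of all loci did, and in control 2 rose and 1 fell, where 3.08% and 3.01% did. Of 8 complex I assembly factors outside the naming rule, ACAD9 (-0.44) and TIMMDC1 (-0.25) were below and ECSIT (0.58) above control at all 12 time points, and over time in 6AN, by limma, TIMMDC1 and LYRM2 rose (adjusted p = 0.00372 and 0.0199) and ACAD9 fell (adjusted p = 0.0228). Of 10 transcriptional regulators with a mean FPKM of at least 1, TFB1M (-0.73) and TFAM (-0.25), which act on mitochondrial DNA and ribosomes, were below control at all 12 time points, and ESRRA (0.70), a nuclear receptor, and POLRMT (0.25), the mitochondrial RNA polymerase, were above. NRF1 fell over time in 6AN (limma slope -0.26, adjusted p = 0.00378) and ESRRA rose (0.12, adjusted p = 0.0361). Set beside these 8 factors and 10 regulators, 20.4% of all loci were below and 13.0% above control at all 12 time points. Over time in 6AN, 12.2% of all loci rose and 13.0% fell. With so few genes, neither list was tested against these shares. ATPIF1, which encodes an inhibitor of ATP synthase and falls outside the naming rule, had means of 169 FPKM in control and 111 in 6AN and was below control at all 12 time points, by -0.60 ± 0.18. In the test of daily rhythms in 6AN, ATPIF1 and TFB1M were called (limma, unadjusted p = 0.00451 and 0.0095), where 1.95% of all loci were.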

How the data were processed

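For RNA-seq, the authors deposited FPKM values per locus of a merged annotation in 2 tables, control and 6AN, that were normalized apart from each other. Total RNA was depleted of rRNA, and the submitters' notes name TopHat, Cufflinks, Bowtie, Bowtie2, HOMER, and build hg38. RNA was extracted in triplicate, and pooling is not given in the sources used here. For ChIP-seq, the authors deposited HOMER peaks with a peak score, merged over libraries, and the signal in 1000 bp around shared sites as scaled tags.

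The members and gene lists were chosen with earlier results of these data known. Loci with a mean FPKM of at least 1 were tested on log2(FPKM + 1) with limma 3.58.1 in R 4.3.3, in a fit for each table, with a slope over the 12 labelled hours or a 24 hr cosine and sine beside a slope. With 1 library per time point, the p-values measure the spread around the fitted curve, which may be technical. Summaries used Python 3.11.15, pandas 2.3.3, and NumPy 2.4.6. RefSeq promoters (GRCh38.p14) gave the start sites and were matched through current and older symbols. Alternatives covered the pseudocount (0.1), no filter on low values, median centring, a Spearman test with 100000 random orders, no linear term, a 5000 bp window, and leaving out each time point. The fits were tested on simulated data. The number of per-sample FPKM columns left unused was 0.

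Full statistics went to the highest and lowest member of each complex, each member called (beyond 12 in a direction, the 6 of smallest p), members on one side of control at all 12 time points (beyond 12, the 6 of largest difference), and the isoform families. Genes of the pathway lists were named where called or on one side of control at all 12 time points, with at most 4 of the largest difference. Since depth was known only relative to other libraries, no counting error was computed.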

Additional observations from a re-analysis of the deposited data

How the results depend on the processing

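No paired test was run. Tests were kept within a table, as the authors normalized control and 6AN separately, and the differences matched by labelled hour are a description. The number of members with a linear change in control was 0 without the filter on low values, 0 by rank correlation, and 0 to 1 when each time point was left out. In 6AN it was 14 to 24 when each time point was left out, 21 without the filter, 25 with libraries centred, and 18 by rank correlation. The number with a 24 hr rhythm in control was 0 with no linear term and 1 to 6 when each time point was left out, and in 6AN it was 1 with a pseudocount of 0.1, 1 without the filter, 1 with no linear term, and 0 to 3 when each time point was left out. Without the filter, which adds the rows listed at 0, the median difference was -0.12, and it was -0.25 to -0.23 when each time point was left out. Members on one side of control at all 12 time points numbered 40 with libraries centred and 45 to 48 when each time point was left out. Members with a peak numbered 21 with a 5000 bp window. Of the slopes of members called in 6AN, 312 values under other settings kept the call and direction and 48 kept only the direction, and the cause was not tested. Values of a few FPKM, as for NDUFAF5 and the antisense RNAs, carry a counting error that was not computed.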

Other observations

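Several members share a start region with another gene on the opposite strand, by the RefSeq start sites. ATP5J starts 82 bases from GABPA, which encodes the DNA-binding subunit of GABP, COX4I1 starts 151 bases from EMC8, and ATP5I starts 266 bases from MYL5. Each of these 3 members had a BMAL1 peak within 1000 bp in at least 1 condition. Every member given here with a neighbour held a peak or an E-box, so the peaks are no result about such pairs. ATP5F1 starts 208 bases from WDR77 and held an E-box with no peak. GABPA differed between 6AN and control by -0.08 ± 0.08 on the log2(FPKM + 1) scale (SD over 12 time points) and was lower in 6AN at 11 of 12 time points, where ATP5J differed by -0.56 ± 0.18 and was lower at 12 of 12. These genes were chosen for their position and for a peak or an E-box, after the values of the members were seen.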
